A study of Mus musculus with 5480 samples.

Results

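Myofibroblasts of the newborn mouse lung were compared between mice kept in hyperoxia, which is breathing gas enriched in oxygen, and mice kept in normal air, at postnatal day 7 (P7). The cells were chosen by the deposited cell subtype label Myofibroblast, and 433 of the 5480 cells of the series were members. The normal-air cells numbered 155 in a female and 184 in a male mouse, and the hyperoxia cells numbered 58 in a female and 36 in a male mouse. A further 9 myofibroblasts of the male hyperoxia mouse lay in well columns 1 to 8 of 1 plate and were left out, as were all 93 cells of those wells. The series holds single cells of distal lung from 10 mice in 5 groups, sorted into plates and sequenced after tagging with the Tn5 transposase, and each cell's reads were counted over 18072 genes. Reads were summed per mouse over the myofibroblasts, because cells of 1 mouse are not replicates. Normal-air mice at postnatal day 1 (P1), with 39 myofibroblasts in a female and 32 in a male, entered the fit as a further group. The labels name no genotype, and the strain, the oxygen level and the length of exposure were not given in the sources used here. Each group was 1 female and 1 male mouse, so p-values measure the spread between these mice after a term for sex.

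Alveolar myofibroblasts are contractile fibroblasts that carry the PDGF receptor alpha and sit at the tips of the growing septa that divide the newborn lung's air sacs. They are known for secreting elastin and the microfibril proteins on which it is laid down. Septation in the mouse takes place after birth, and oxygen exposure during this window is a standard model of the lung disease of preterm infants. Oxygen radicals damage DNA, and DNA damage stabilises the transcription factor p53, which switches on genes for cell cycle arrest, repair and death.

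Of the 11 listed myofibroblast markers, 4 were higher in the labelled cells than in every other subtype compared. In normal air at P7, Pdgfra, Stc1, P2ry14 and Egfem1 were each higher in the myofibroblasts of both mice than in any non-myofibroblast subtype compared. Proliferating myofibroblasts, the myofibroblast and smooth muscle precursors and subtypes with under 10 cells in a mouse were left out of that comparison. The margin was small for Egfem1, at 1142 CPM against 1086 CPM in early airway smooth muscle, scaled to total reads. Another 5, among them Tgfbi, Fgf18 and Aspn, were instead highest in early airway smooth muscle, the neighbouring contractile class. Mustn1 was above that class in 1 of the 2 mice, and Dach2 was near 0. The 11 markers together summed to 11061 and 9922 CPM (a gene's reads scaled to a common library total) in the normal-air mice and 12437 and 11345 CPM in the hyperoxia mice. In early airway smooth muscle of the same normal-air mice the 11 markers summed to 21831 and 22382 CPM, scaled to total reads. On that scale the normal-air myofibroblasts were at 11204 and 9775 CPM. The endothelial gene Cdh5 and the immune genes Cd3e and Tyrobp were at or near 0 in all 4 P7 mice, while Ramp2 and Lyz2 of the same lists reached 239.5 and 121 CPM. The summed reads ranged from 37125581 to 213051124 per P7 mouse. Each of the 4 P7 mice was sequenced mainly in its own run, so run and treatment cannot be told apart.

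Myofibroblasts were a smaller share of the cells in both hyperoxia mice. They made up 25.6% (95% Wilson interval 22.3 to 29.2) of the cells of the female normal-air mouse and 32.3% (28.6 to 36.2) of those of the male. In hyperoxia they made up 11.4% (8.92 to 14.4) in the female and 7.86% (5.73 to 10.7) in the male. The shares did not overlap between the groups, and the intervals cover counting error only, since sorting and plate loading also set these shares. Cells labelled as proliferating myofibroblasts are a separate subtype. Per 100 cells of both labels they numbered 17.1 and 19.7 in normal air and 22.7 and 18.2 in hyperoxia, and these ranges overlapped.

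Hyperoxia myofibroblasts yielded more genes in the median at the same depth. With every cell thinned to 100000 reads, the median number of genes detected per cell was 2235 and 2126.5 in the female and male normal-air mice and 4471 and 5315.5 in the female and male hyperoxia mice. The hyperoxia medians were higher by 2712.5 genes on average and did not overlap those in normal air. The exact two-sided permutation test gave p = 0.333, the smallest that 2 mice against 2 allow. At P1 the medians were 3327 and 2204 genes. The 100 most abundant genes took 37.5% and 36.7% of the thinned reads in normal air and 30.2% and 31.6% in hyperoxia. The share of thinned cells with a read was higher in both hyperoxia mice for 81.1% of the genes tested, so a higher share of cells with a read was the usual case there, and the summed CPM is the measure used in what follows. Whether the wider detection of genes plays a part in any gene's difference was not tested.

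**Figure D1:**
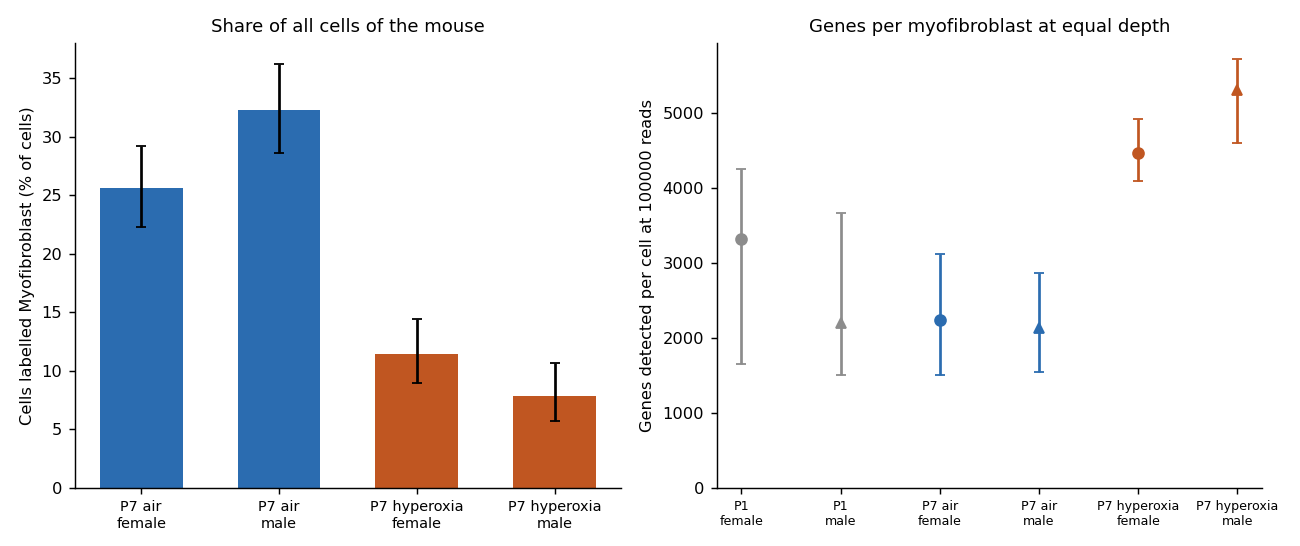
Left, cells labelled Myofibroblast as a percentage of all cells of each P7 mouse, bars starting at 0, with 95% Wilson intervals. Right, median genes detected per myofibroblast after thinning each cell to 100000 reads, with the quartiles over cells, at P1 and P7; both hyperoxia mice, at 4471 and 5315.5 genes, sit above the 4 mice in normal air.

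No gene passed the test across all genes in the fit with the P1 mice. edgeR's quasi-likelihood test called 0 of 13229 genes (0%) at a Benjamini-Hochberg adjusted p of 0.05, the smallest adjusted p was 0.121, and 849 genes (6.42%) had an unadjusted p under 0.05, 433 higher (3.27%) and 416 lower (3.14%) in hyperoxia. DESeq2 called 379 genes (2.86%) on the same reads and limma voom 68 (0.514%). With each cell first thinned to 100000 reads, edgeR called 0 of 11643 genes, with 837 at an unadjusted p under 0.05. A planned fit of the 4 P7 mice alone called 117 of 13404 genes (0.873%), 92 higher (0.686%) and 25 lower (0.187%) in hyperoxia. With terms for sex and group it left 1 residual degree of freedom to estimate the spread, against 2 in the fit with the P1 mice. All 117 lay on the same side in both hyperoxia mice, a pattern that a call in 2 mice against 2 favours. Of these genes, 110 were also called by DESeq2 and 63 by limma voom, both on the same reads with the P1 mice. With the P1 mice, edgeR called 0 of them after thinning to 100000 reads or under other scalings, and 10 after thinning to 50000. The P7 fit was not repeated on thinned cells. In the paragraphs below, a gene is said to have risen or fallen only where this P7 fit called it, and every such gene missed the threshold in the fit with the P1 mice. Values per mouse are CPM of the summed reads, female first and then male, and log2 differences are hyperoxia minus normal air from the fit with the P1 mice, with their standard errors. Across all genes tested, both hyperoxia mice lay above both normal-air mice for 21.9% and below them for 24.7%, and these shares are the background against which each gene group is read.

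Genes known as p53 targets were higher in hyperoxia, 18 of the 19 tested in both mice and none lower in both, with a median log2 difference of 2.61 against -0.05 over all genes. Of these, 10 rose in the P7 fit. Cdkn1a encodes p21, the inhibitor of cyclin-dependent kinases through which p53 halts the cycle. It stood at 79.8 and 58.1 CPM in normal air and at 2761 and 2898 CPM in hyperoxia, and the hyperoxia mice lay far above both others and close to each other. The log2 difference was 5.31 ± 0.67, with an adjusted p of 0.000248 in the P7 fit by edgeR's quasi-likelihood test and 0.121 in the fit with the P1 mice. At P1 it stood at 17.0 and 69.2 CPM, on the side of the P7 normal-air mice. Among cells thinned to 100000 reads, a Cdkn1a read was found in 8.55% and 5.62% in normal air and in 94.8% and 94.4% in hyperoxia.

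The feedback arm of the pathway was high in the same mice. Mdm2, the ubiquitin ligase that degrades p53, stood at 27.7 and 34.5 CPM in normal air and 133 and 198 CPM in hyperoxia. Ccng1, which encodes cyclin G1, stood at 10.5 and 21.7 CPM in normal air and 155 and 209 CPM in hyperoxia. Phlda3, an inhibitor of Akt signalling, stood at 74.7 and 83.6 CPM in normal air and 456 and 631 CPM in hyperoxia. For each of the 3 genes both hyperoxia mice lay above both normal-air mice. The log2 differences were 2.38 ± 0.45 for Mdm2, 3.58 ± 0.47 for Ccng1 and 2.77 ± 0.36 for Phlda3, and all 3 rose in the P7 fit.

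Death and stress genes of the pathway lay on the same side. Bax, which permeabilises mitochondria in apoptosis, stood at 158 and 92.5 CPM in normal air and 456 and 319 CPM in hyperoxia. Zmat3, an RNA-binding target of p53, stood at 5.93 and 6.20 CPM in normal air and 88.9 and 141 CPM in hyperoxia. Both rose in the P7 fit, as did the death receptor gene Tnfrsf10b, the TNF receptor family member Eda2r, the nuclease gene Aen and the stress gene Sesn2. Tnfrsf10b was at 1.81 and 7.43 CPM in normal air and 39.8 and 49.8 CPM in hyperoxia. Eda2r was at 3.77 and 0.391 CPM in normal air, 43.5 and 38.0 CPM in hyperoxia and 0 and 28.1 CPM at P1. Without the female hyperoxia mouse the log2 differences of Tnfrsf10b and Eda2r were 1.62 and 1.39, in place of 3.92 and 4.20. Without the female normal-air mouse that of Eda2r was 10.0. In such fits the P1 mice help set the term for sex. Bbc3 and Pmaip1, which encode the apoptosis triggers PUMA and NOXA, were higher in both hyperoxia mice but were not called, and Pmaip1 was at 0.815 and 7.34 CPM in hyperoxia. Btg2, an antiproliferative gene, was at 1069 and 1511 CPM in normal air and 2068 and 3105 CPM in hyperoxia, and was not called. Sesn1 was the tested member whose groups overlapped, at 42.6 and 19.9 CPM in normal air and 13.6 and 29.7 CPM in hyperoxia. Perp, also on the list, had too few reads to be tested.

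**Figure D2:**
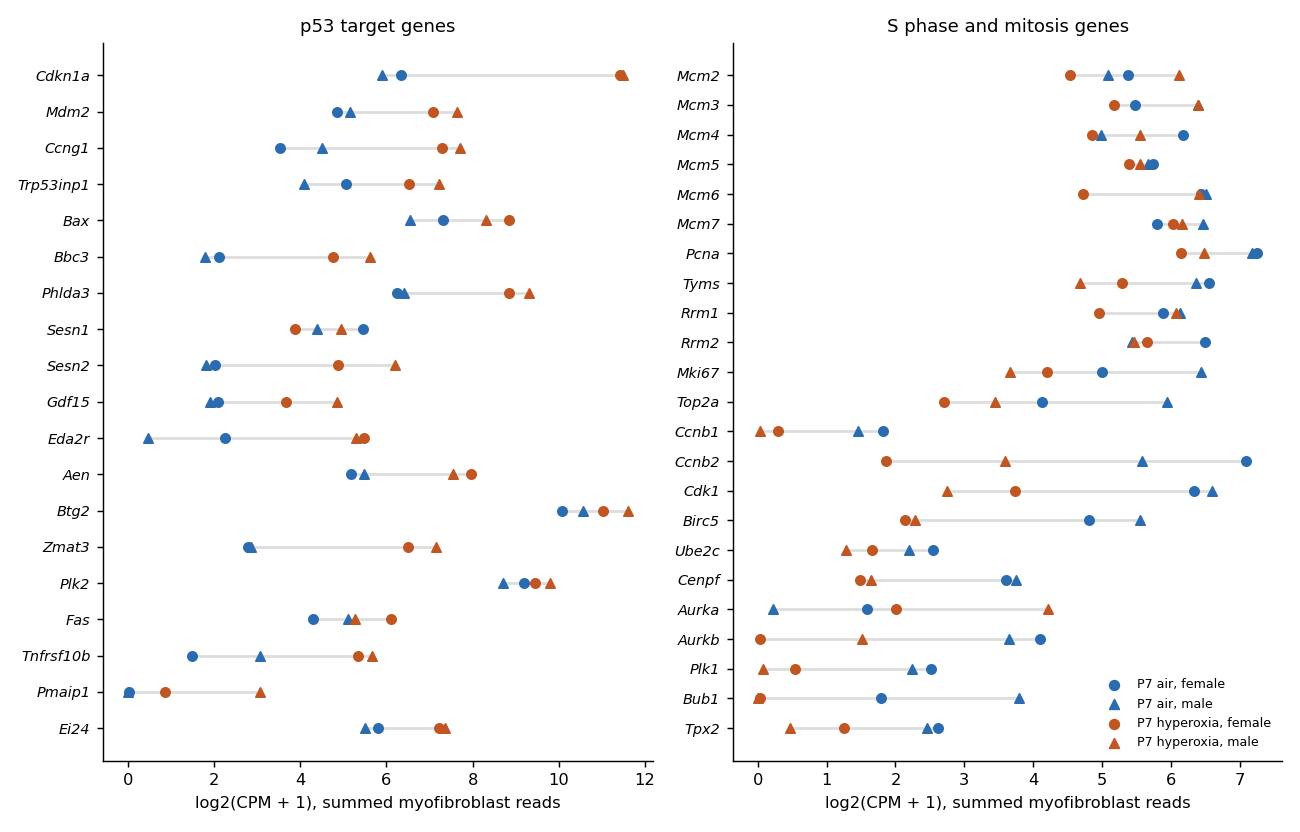
Level of each tested p53 target (left) and each tested S phase or mitosis gene (right) on the log2(CPM + 1) scale, 1 point per P7 mouse, circles female and triangles male, blue normal air and orange hyperoxia. On the left 18 of 19 genes have both orange points to the right of both blue points; on the right 16 of 23 have both to the left.

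The promoters of these genes were also examined. The genes were listed as known p53 targets, so the shares given here describe the list and not the response to hyperoxia. RefSeq promoters of build GRCm38.p6 were matched for 15 of the 20 listed p53 targets, and the 250 bases before each start were searched for the p53 binding unit by its published consensus, which reads the same on both strands. The unit was present at a start of 7 of the 15 genes (46.7%) and of 8.20% of all 27025 genes in the promoter table. A pair of units with at most 13 bases between them, the full p53 site, was present at 18 genes in the table, and Cdkn1a was the 1 member among them. The 3 sequences here are from 3 of those 7 genes, of cell cycle arrest and feedback, whose values are given above, 5′ to 3′ on the gene's strand, with each p53 unit in capitals. A second start of Cdkn1a in the table, at chr17:29093519-29093768, held no unit in the same window. A match is a description of the letters and not evidence of binding.
Cdkn1a, chr17:29090729-29090978, plus strand: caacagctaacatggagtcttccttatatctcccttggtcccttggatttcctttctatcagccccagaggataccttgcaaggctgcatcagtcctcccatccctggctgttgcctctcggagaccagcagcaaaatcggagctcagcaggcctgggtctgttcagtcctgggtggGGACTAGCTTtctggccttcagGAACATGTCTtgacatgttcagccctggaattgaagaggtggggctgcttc
Ccng1, chr11:40755287-40755536, minus strand: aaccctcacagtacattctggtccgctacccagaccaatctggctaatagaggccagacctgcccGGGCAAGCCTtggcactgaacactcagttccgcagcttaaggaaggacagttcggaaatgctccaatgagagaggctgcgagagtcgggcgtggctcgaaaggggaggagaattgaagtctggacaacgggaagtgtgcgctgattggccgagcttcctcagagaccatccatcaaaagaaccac
Mdm2, chr10:117710759-117711008, minus strand: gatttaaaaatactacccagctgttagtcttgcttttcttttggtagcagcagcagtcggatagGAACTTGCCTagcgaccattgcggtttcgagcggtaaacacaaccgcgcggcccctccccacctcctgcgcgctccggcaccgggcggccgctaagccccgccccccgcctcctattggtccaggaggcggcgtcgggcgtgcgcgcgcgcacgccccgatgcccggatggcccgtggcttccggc

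Most listed genes of mitosis were lower, and those of DNA replication were mixed. Of 23 S phase and mitosis genes, 16 were lower in both hyperoxia mice and 1 was higher, with a median log2 difference of -1.49. Cdk1, the kinase that drives entry into mitosis, stood at 79.9 and 95.8 CPM in normal air and 12.3 and 5.70 CPM in hyperoxia. Its groups did not overlap, the log2 difference was -3.33 ± 0.59, and it fell in the P7 fit (edgeR quasi-likelihood test, adjusted p = 0.0110). A Cdk1 read was found in 17.1% and 14.0% of the thinned normal-air cells and in 13.8% and 11.1% in hyperoxia. Mki67 and Top2a, both marks of cycling cells, stood at 30.8 and 85.6 CPM and at 16.5 and 60.3 CPM in normal air, against 17.4 and 11.6 CPM and 5.50 and 9.92 CPM in hyperoxia. Neither was called. Among the genes of the MCM helicase, which opens DNA for replication, 4 of 6 had overlapping groups, with Mcm2 at 40.6 and 33.0 CPM in normal air and 22.1 and 68.1 CPM in hyperoxia. Cycling cells carry a label of their own, and the part of that labelling in the level of these genes here was not tested.

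The promoter of Cdk1 is shown because the sequence CCAAT is common in promoters of mitotic genes. CCAAT, searched on both strands, was present before a start of 18 of 20 matched S phase and mitosis genes (90%), of 9 of 15 matched p53 targets (60%) and of 37.5% of all genes. In the RefSeq sequence of build GRCm38.p6, each CCAAT on either strand is in capitals.
Cdk1, chr10:69352913-69353162, minus strand: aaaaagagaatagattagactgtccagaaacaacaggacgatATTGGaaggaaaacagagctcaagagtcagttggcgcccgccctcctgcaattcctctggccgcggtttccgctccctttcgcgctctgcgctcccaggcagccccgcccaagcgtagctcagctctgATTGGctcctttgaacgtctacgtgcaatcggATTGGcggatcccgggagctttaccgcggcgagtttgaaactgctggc

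The G1 genes went in both directions. Ccnd1, which encodes cyclin D1 and couples growth signals to the cycle, stood at 142 and 96.3 CPM in normal air and 653 and 595 CPM in hyperoxia. Cdk6, its partner kinase, stood at 184 and 290 CPM in normal air and 636 and 882 CPM in hyperoxia. Both rose in the P7 fit, with log2 differences of 2.42 ± 0.33 and 1.71 ± 0.33. Cdk4, the other partner kinase, had overlapping groups, at 711 and 731 CPM in normal air and 759 and 595 CPM in hyperoxia. The inhibitor genes Cdkn1c and Cdkn2c were lower in both hyperoxia mice, Cdkn2c at 74.3 and 62.8 CPM in normal air and 21.8 and 9.47 CPM in hyperoxia, and neither was called. Cdkn1a was thus the 1 listed inhibitor of the cycle that rose, and 5 of the 10 tested G1 genes were higher and 2 lower in both mice.

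The 24 genes with the smallest unadjusted p among those at 50 CPM or more in a P7 group and with groups that did not overlap, 12 in each direction, included genes of ion transport, lipid and redox chemistry beside those of the p53 pathway. Lrrc8a, the obligatory subunit of volume-regulated anion channels, stood at 24.2 and 27.5 CPM in normal air and 205 and 291 CPM in hyperoxia. A4galt, which makes the glycolipid Gb3, stood at 0.0713 and 0.0238 CPM in normal air and 72.5 and 42.5 CPM in hyperoxia. Gpx3, a secreted glutathione peroxidase, stood at 151 and 130 CPM in normal air and 1058 and 852 CPM in hyperoxia. In each case both hyperoxia mice lay above both others by several fold. At P1 Gpx3 was at 411 and 502 CPM, between the P7 groups, and A4galt at 3.86 and 3.23 CPM. Psrc1, which encodes a spindle protein, stood at 8.70 and 4.15 CPM in normal air and 237 and 137 CPM in hyperoxia, in the opposite direction to most mitotic genes. Itpripl1, the adenylate kinase gene Ak1 and the dual-specificity phosphatase gene Dusp3 had log2 differences of 3.82 ± 0.36, 3.55 ± 0.46 and 2.58 ± 0.34. All 12 leading higher genes rose in the P7 fit.

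Among the leading lower genes, several act outside the cell. Enpp1, an enzyme that makes extracellular pyrophosphate, stood at 88.2 and 103 CPM in normal air and 4.24 and 5.21 CPM in hyperoxia. Hmcn1, an extracellular matrix protein of the hemicentin family, stood at 504 and 712 CPM in normal air and 170 and 176 CPM in hyperoxia. Igfbp5, a secreted binding protein of insulin-like growth factors, stood at 342 and 407 CPM in normal air and 20.2 and 6.18 CPM in hyperoxia. Enpp1, Hmcn1 and Igfbp5 were chosen among genes whose groups did not overlap. Their log2 differences were -4.35 ± 0.72, -1.77 ± 0.37 and -4.73 ± 0.97. At P1 Igfbp5 was at 10.7 and 62.4 CPM and Enpp1 at 10.8 and 39.3 CPM, so for both genes the P1 mice also lay below the P7 normal-air mice. Tcf7l2, a transcription factor of Wnt signalling, was at 492 and 593 CPM in normal air and 177 and 119 CPM in hyperoxia, and Stmn1, which destabilises microtubules, at 236 and 228 CPM and 56.2 and 75.7 CPM. Nnat, Qpct, Adgrg2, Cdc42ep3 and Tmcc1 had log2 differences between -2.11 and -1.46. The share of thinned cells with a read was lower in both hyperoxia mice for Enpp1, Cdk1, Nnat, Igfbp5 and Adgrg2. That share was higher in both for Tcf7l2, Ltbp1, Hmcn1 and Tmcc1, and overlapped for Qpct, Cdc42ep3 and Stmn1. Of the 12 leading lower genes, 11 fell in the P7 fit and Tmcc1 did not (edgeR quasi-likelihood test, adjusted p = 0.0813).

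**Figure D3:**
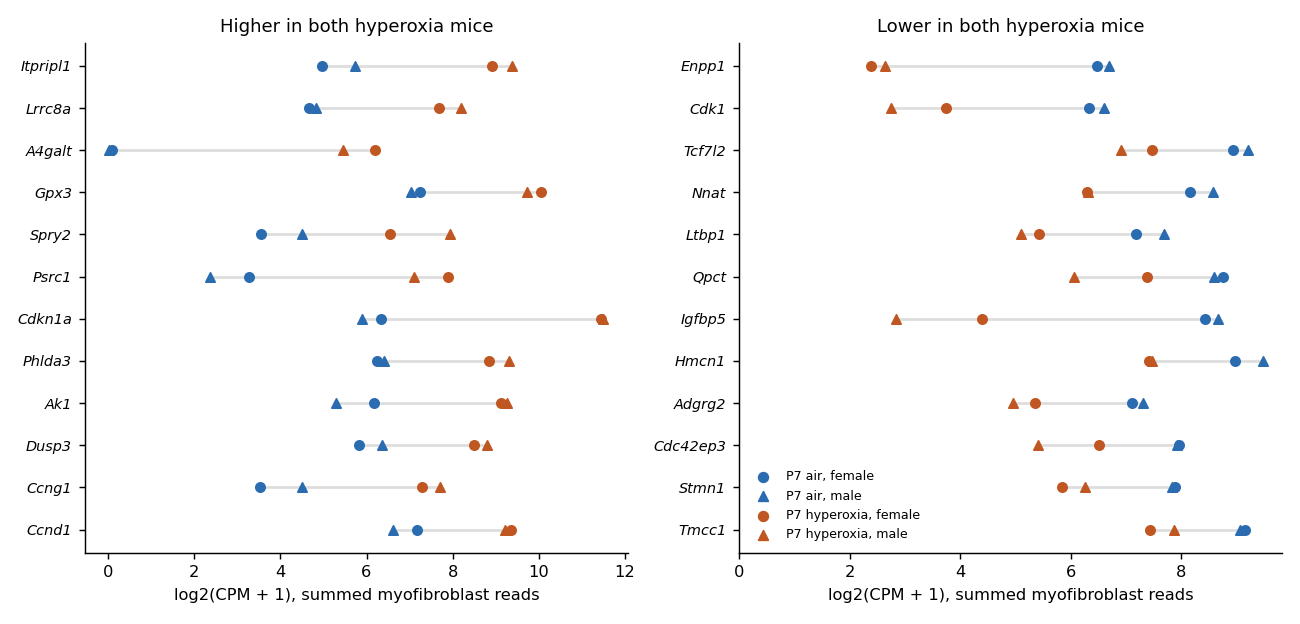
Level per P7 mouse of the 12 leading higher genes (left) and the 12 leading lower genes (right) on the log2(CPM + 1) scale, circles female and triangles male, blue normal air and orange hyperoxia. No orange point crosses a blue point in any of the 24 genes, which were chosen for groups that do not overlap.

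Elastic fibre genes, whose products these cells are known to secrete, lay mostly on the lower side. Of 16 tested, 9 were lower in both hyperoxia mice and 1 was higher, with a median log2 difference of -0.92. Eln, which encodes elastin itself, stood at 2102 and 1599 CPM in normal air and 655 and 905 CPM in hyperoxia. The groups did not overlap, but with a log2 difference of -1.24 ± 0.35 Eln was not called (edgeR quasi-likelihood test, adjusted p = 0.175 in the P7 fit). At P1 it was at 559 and 496 CPM. Ltbp1, which tethers latent TGF-beta to microfibrils, stood at 145 and 204 CPM in normal air and 41.8 and 33.1 CPM in hyperoxia. It was the 1 member that fell in the P7 fit, with a log2 difference of -2.16 ± 0.43. Yet a Ltbp1 read was found in 27.6% and 23.6% of the thinned normal-air cells and in 37.9% and 38.9% in hyperoxia.

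Microfibril genes lay on the same side with wider spread. Mfap5 stood at 487 and 758 CPM in normal air and 89.2 and 0.709 CPM in hyperoxia, with hyperoxia mice that differed far more from each other than the normal-air mice did. At P1 it was at 85.3 and 3.99 CPM. Mfap2, Mfap4, Fbn1, Fbn2 and Ltbp2 were each lower in both hyperoxia mice, with log2 differences between -1.57 and -0.51, and none was called. Fbln1 was the member higher in both, at 423 and 324 CPM in normal air and 480 and 598 CPM in hyperoxia. Fbln5, whose protein links elastin to cells, had overlapping groups at 69.1 and 33.7 CPM in normal air and 22.4 and 42.8 CPM in hyperoxia. Of 5 lysyl oxidases tested, which cross-link elastin and collagen, 2 were higher and 1 lower in both hyperoxia mice, and none was called. Lox, the lower one, was at 52.5 and 33.3 CPM in normal air and 21.9 and 32.6 CPM in hyperoxia. Under RLE scaling 2 were higher and 0 lower.

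Collagen genes went in both directions, and none was called. Of 15 tested, 3 were higher and 5 lower in both hyperoxia mice and the median log2 difference was -0.02, near that of all genes. Col1a1 was at 1486 and 1413 CPM in normal air and 1538 and 1939.5 CPM in hyperoxia, and Col3a1 at 1923 and 1894 CPM and 1278 and 1370.5 CPM. Their log2 differences were 0.25 ± 0.32 and -0.53 ± 0.33, and neither was called. Among matrix-modulating proteins, the proteoglycan genes Dcn and Lum rose in the P7 fit, Dcn from 13.8 and 4.48 CPM to 86.8 and 45.7 CPM. At P1 Dcn was at 1.67 and 108 CPM, so the P1 mice spanned both P7 groups. Without the female hyperoxia mouse the log2 difference of Dcn was 0.44 in place of 2.83, and that of Lum was -0.81 in place of 3.91. That fit has only the male hyperoxia mouse, and the P1 mice help set its term for sex. The male hyperoxia mouse, at 45.7 CPM of Dcn, was itself above both normal-air mice. Aspn, a related proteoglycan and a marker of these cells, fell from 837 and 1087 CPM to 242 and 27.7 CPM. Its log2 difference of -3.08 became -1.73 without the male hyperoxia mouse and -5.42 without the female. Fn1, Tnc, Thbs1 and Thbs2, which encode fibronectin, tenascin-C and thrombospondins, were lower in both hyperoxia mice without being called, Fn1 at 353 and 338 CPM in normal air and 155 and 89.7 CPM in hyperoxia.

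Contractile genes did not move as a group. Of 16 contractile proteins tested, 3 were higher and 4 lower in both hyperoxia mice, with a median log2 difference of -0.16, and none was called. Acta2, smooth muscle actin, was at 8333 and 8199 CPM in normal air and 9773 and 3783 CPM in hyperoxia, so the hyperoxia mice lay on either side of both others. Actin genes have close copies, and how reads shared between such copies were counted was not given in the sources used here. Myh11 was at 536 and 790 CPM in normal air and 535 and 423 CPM in hyperoxia, and Tagln at 295 and 327 CPM and 493 and 344 CPM. Myocd, the coactivator that switches on this set, was at 124 and 138 CPM in normal air and 120 and 57.7 CPM in hyperoxia.

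Markers of myofibroblast identity went in both directions. Of the 11 tested, 4 were higher and 5 lower in both hyperoxia mice, with a median log2 difference of -0.32. Stc1, which encodes the secreted hormone stanniocalcin-1, stood at 186 and 197 CPM in normal air and 990 and 687 CPM in hyperoxia, and rose in the P7 fit, while P1 mice were at 1234 and 565 CPM. Mustn1 stood at 667 and 1019 CPM in normal air and 227 and 112 CPM in hyperoxia, and it fell with Aspn in the P7 fit. Pdgfra was at 356 and 263 CPM in normal air and 138 and 210 CPM in hyperoxia, lower in both hyperoxia mice and not called. P2ry14 and Egfem1 had log2 differences of -0.40 ± 0.36 and 0.02 ± 0.31.

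**Figure D4:**
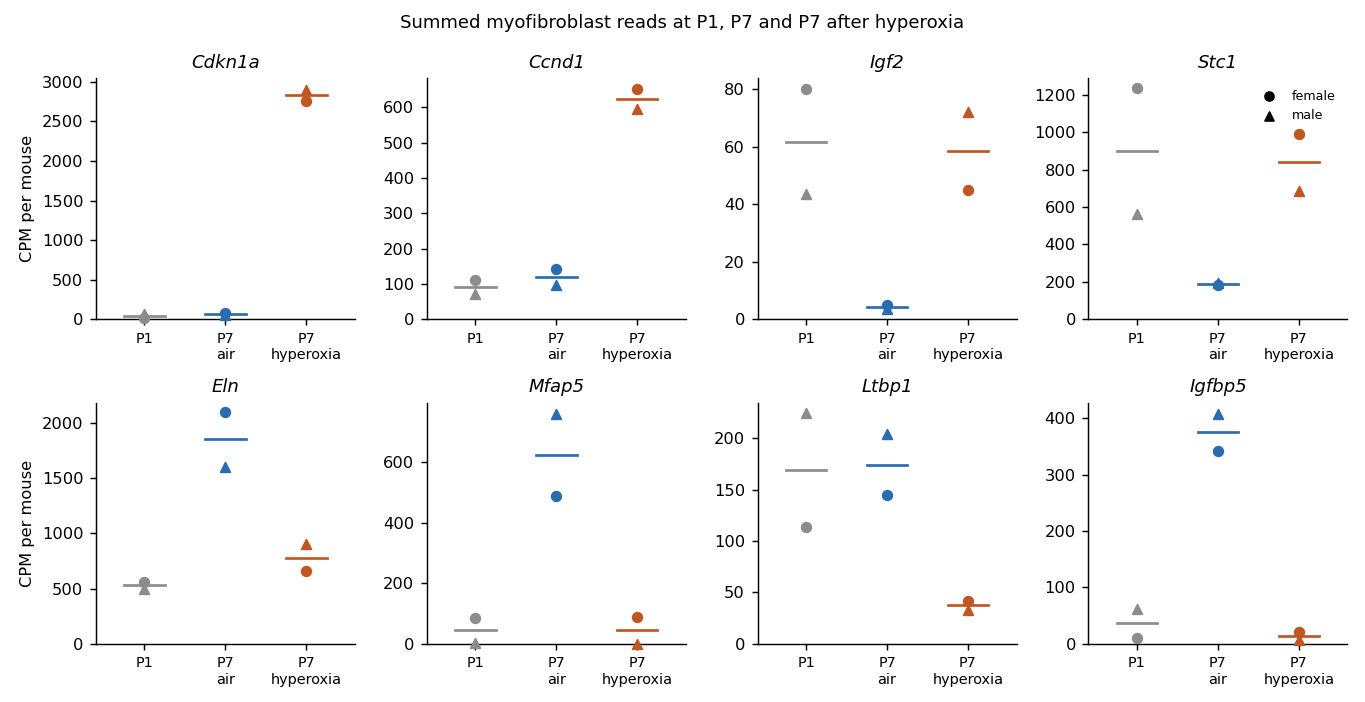
CPM of 8 genes in the summed myofibroblast reads of each mouse at P1, at P7 in normal air and at P7 after hyperoxia, on linear axes from 0, with lines at the group means. For Eln, Mfap5, Igfbp5, Igf2 and Stc1 both P7 hyperoxia mice and both P1 mice lie on the same side of the P7 normal-air mice; for Cdkn1a and Ccnd1 the hyperoxia mice stand apart from the 4 others.

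Markers of other cell types were present at different levels, and some differed between the treatments. Alveolar fibroblast markers summed to 13.1 and 19.1 CPM in normal air and 52.9 and 46.3 CPM in hyperoxia. Of 6 tested, 4 were higher in both hyperoxia mice. Among them Wnt2 rose in the P7 fit, from 0.291 and 0.00476 CPM to 27.3 and 18.3 CPM, with P1 mice at 55.7 and 0 CPM. A Wnt2 read was found in 13.8% and 11.1% of the thinned hyperoxia cells. Its log2 difference of 10.49 was 5.26 without the male hyperoxia mouse, in a fit where the P1 mice help set the term for sex. Adventitial fibroblast markers summed to 535 and 554 CPM in normal air and 748 and 1406 CPM in hyperoxia, where Cd248 made up most of the sum and Ly6a, Clec3b and Dpp4 were near 0. Col14a1 of that list went the other way, from 52.7 and 81.8 CPM to 2.90 and 0.329 CPM, and fell in the P7 fit. Airway smooth muscle markers were the highest of these, at sums of 3215 and 3610 CPM in normal air and 3423 and 1779 CPM in hyperoxia. Scaled to total reads in normal air, early airway smooth muscle itself was at 8117 and 10793 CPM of them. Myofibroblasts were at 3257 and 3557 CPM on that scale. Epithelial markers summed to 53.1 and 67.6 CPM in normal air and 18.7 and 11.0 CPM in hyperoxia, immune markers to 73.9 and 40.7 CPM and 128 and 100 CPM, mostly from Lyz2, and endothelial markers to 202 and 248 CPM and 245 and 168 CPM, mostly from Ramp2. Pericyte markers summed to 318 to 393 CPM and vascular smooth muscle markers to 71.7 to 144 CPM over the 4 mice, while erythroid, mesothelial and Schwann cell markers stayed under 5 CPM in each. The part of these cells or their RNA in the differences above was not tested.

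Targets of FGF signalling were higher in hyperoxia while Fgf18, a ligand these cells make, was lower. Of 14 FGF pathway genes, 7 were higher and 1 lower in both hyperoxia mice, with a median log2 difference of 1.05. Spry2, a feedback inhibitor of receptor tyrosine kinases, stood at 10.7 and 21.7 CPM in normal air and 92.3 and 245 CPM in hyperoxia and rose in the P7 fit. Spry4 stood at 80.2 and 73.0 CPM in normal air and 203 and 265 CPM in hyperoxia, and Etv4, a transcription factor induced by FGF, at 10.7 and 12.9 CPM and 40.2 and 82.1 CPM. Spry4, Etv4, Dusp6, Spry1 and Etv5 lay on the same side and were not called. Fgf18 was at 138 and 157 CPM in normal air and 36.3 and 55.5 CPM in hyperoxia, a log2 difference of -1.71 ± 0.39 that just missed the threshold in the P7 fit (edgeR quasi-likelihood test, adjusted p = 0.0623). All 4 receptor genes had overlapping groups.

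Growth factor genes showed few differences beyond the spread. In the IGF group, Igf2, a fetal growth factor, rose from 4.83 and 3.75 CPM to 45.0 and 72.1 CPM, and P1 mice were at 79.9 and 43.5 CPM. Igf1 was at 556 and 898 CPM in normal air and 1086 and 955 CPM in hyperoxia and was not called. Of 16 TGF-beta pathway genes 6 were higher and 4 lower in both hyperoxia mice, none called, with the receptor genes Tgfbr1 and Tgfbr2 at log2 differences of -1.10 ± 0.84 and 0.30 ± 0.36. Of 5 PDGF genes tested, Pdgfra was the 1 whose groups did not overlap. Of 10 Hedgehog genes 1 was higher and 4 lower, and Hhip, an inhibitor that the pathway itself induces, was at 75.1 and 181 CPM in normal air and 40.5 and 15.8 CPM in hyperoxia. Of 17 Wnt genes 5 were higher and 3 lower, among them Notum, a secreted Wnt inhibitor, at 25.4 and 10.8 CPM in normal air and 86.7 and 85.0 CPM in hyperoxia. Of 13 BMP genes 2 were higher and 5 lower. Grem1, a BMP antagonist, had 15.6 and 7.90 CPM in normal air and no read in either hyperoxia mouse. Against a floor of 3 reads in each hyperoxia mouse, Grem1 was at least 163.5-fold lower in hyperoxia, and it fell in the P7 fit. A Grem1 read was found in 3.95% and 2.81% of the thinned normal-air cells, and the bound does not cover the sampling of so few cells. Neither P1 mouse exceeded 0.0380 CPM of it.

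Redox genes were mixed. Of 20 NRF2 targets, the genes switched on by electrophiles and oxidants, 7 were higher and 4 lower in both hyperoxia mice, with a median log2 difference of 0.33. Osgin1 rose in the P7 fit, from 0 and 0.0476 CPM to 24.2 and 16.0 CPM. Nqo1 and Hmox1, widely used readouts of this pathway, overlapped, Nqo1 at 8.92 and 20.3 CPM in normal air and 17.7 and 6.30 CPM in hyperoxia, and Hmox1 at 12.7 and 35.8 CPM and 59.3 and 21.5 CPM. Of 16 antioxidant and metallothionein genes 5 were higher and 6 lower. Sod1, the cytosolic superoxide dismutase, was at 132 and 229 CPM in normal air and 382 and 472 CPM in hyperoxia, and Sod3, the secreted form, at 106 and 80.3 CPM and 29.3 and 35.3 CPM, neither called. Gpx3 was the 1 member of this group that rose.

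Genes of mitochondrial respiration were slightly lower together. Of 73 nuclear oxidative phosphorylation genes, 49 were lower and 3 higher in both hyperoxia mice, with a median log2 difference of -0.57, and none was called. Ndufb8 of complex I was at 375 and 690 CPM in normal air and 232 and 196 CPM in hyperoxia, and Cox5a of complex IV at 159 and 220 CPM and 92.3 and 81.4 CPM. Atp5b, the catalytic subunit of the ATP synthase, was on the other side, at 1000 and 711 CPM in normal air and 1813 and 1342 CPM in hyperoxia. Of 22 targets of the hypoxia factor HIF and glycolysis enzymes 11 were higher and 2 lower, with a median of 0.55. Pkm was at 213 and 168 CPM in normal air and 419 and 329 CPM in hyperoxia, and Hif1a itself overlapped, at 72.4 and 44.3 CPM and 51.3 and 53.2 CPM. Of 15 genes of the unfolded protein response 4 were higher and 3 lower, with a median of -0.15.

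Inflammatory genes were higher from low starting levels. Of 15 chemokine and inflammation genes tested, 11 were higher and 1 lower in both hyperoxia mice, with a median log2 difference of 4.16, and 6 of the 21 listed had too few reads to be tested. Icam1, an adhesion molecule for leukocytes, stood at 8.98 and 12.2 CPM in normal air and 174 and 209 CPM in hyperoxia. Ccl2, which attracts monocytes, stood at 6.05 and 0.719 CPM in normal air and 357 and 7.21 CPM in hyperoxia. Both rose in the P7 fit, yet for Ccl2 the female hyperoxia mouse stood far above the male, whose level was near that of the female in normal air, and P1 mice were at 41.8 and 81.8 CPM. Without the female hyperoxia mouse its log2 difference was 1.95, in place of 5.21. Lif, a cytokine of the IL-6 family, was at 0.291 and 0.0143 CPM in normal air and 11.5 and 16.6 CPM in hyperoxia, and Vcam1 at 0.0535 and 0.238 CPM and 12.3 and 12.0 CPM, neither called. Nfkbia, the inhibitor that NF-kappaB induces to switch itself off, was the member on the lower side, at 714 and 793 CPM in normal air and 243 and 454 CPM in hyperoxia.

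Antigen presentation and early response genes added few calls. Of 18 interferon and MHC class I genes, 8 were higher and 1 lower in both hyperoxia mice. Tap1, a subunit of the peptide transporter for class I molecules, rose in the P7 fit from 2.19 and 6.41 CPM to 31.3 and 52.4 CPM. Its log2 difference of 3.23 was 0.45 without the male hyperoxia mouse and 6.71 without the male normal-air mouse. In such fits the P1 mice help set the term for sex, and the female hyperoxia mouse, at 31.3 CPM, was itself above both normal-air mice. Isg15, a sensitive interferon target, was at or near 0 in all 4 mice. Of 18 immediate early genes, which mark recent stimulation or tissue handling, 3 were higher and 6 lower. Fosb fell in the P7 fit, from 165 and 205 CPM to 41.3 and 71.8 CPM, while Fos overlapped, at 2803 and 2355 CPM in normal air and 2209 and 2960.4 CPM in hyperoxia.

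**Figure D5:**
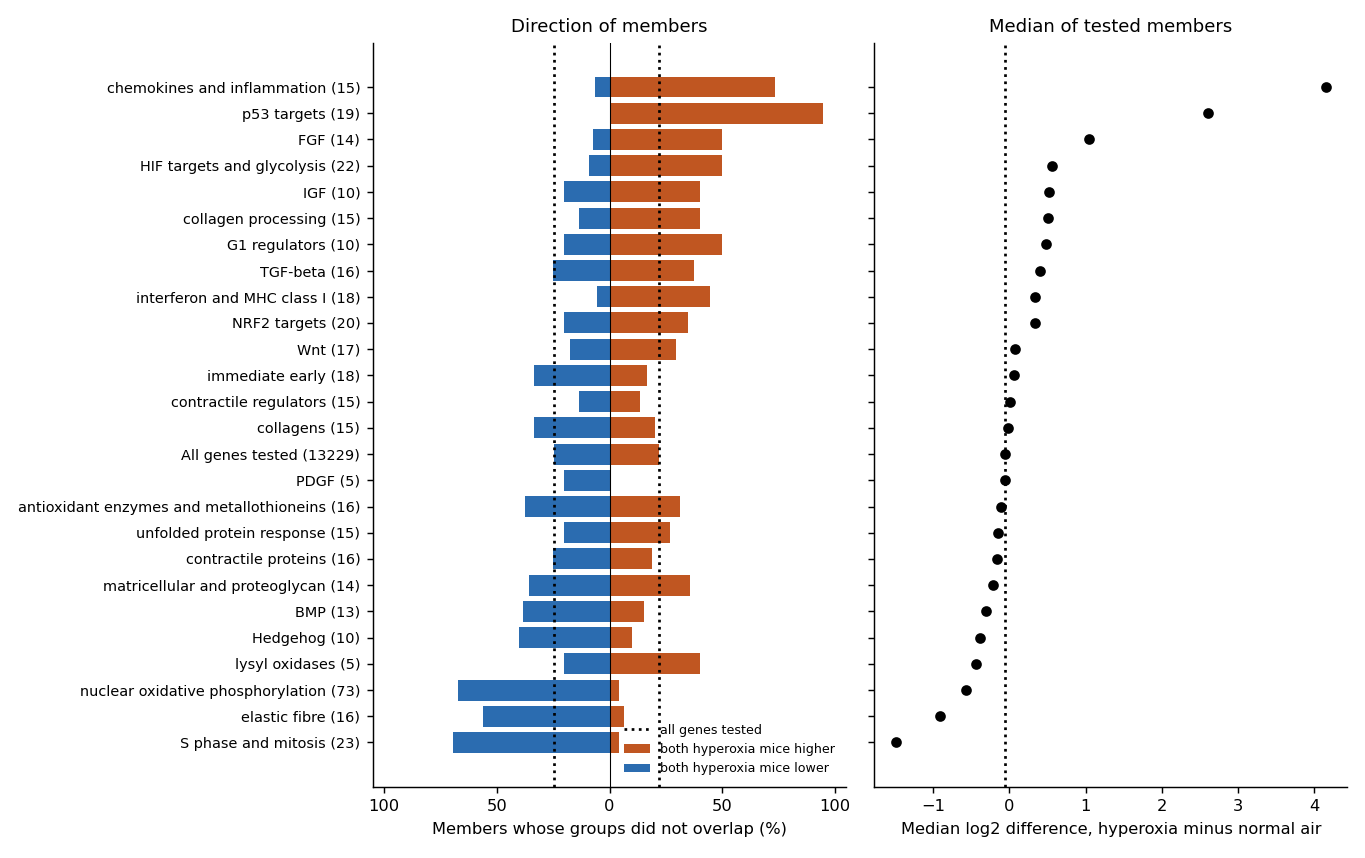
For each gene group, with the number tested in brackets, the percentage of members higher (orange, right) or lower (blue, left) in both hyperoxia mice, beside the median log2 difference. Dotted lines mark all 13229 genes, 21.9% higher and 24.7% lower, with a median of -0.05; p53 targets and chemokines extend farthest to the right, and S phase, elastic fibre and oxidative phosphorylation genes to the left.

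Neighbouring classes of the same mice were compared to see where the myofibroblasts differed. The hyperoxia difference itself was tested between classes with edgeR, each mouse as a block. Against early alveolar fibroblasts, the fibroblasts of the alveolar region, 0 of 15302 genes (0%) were called, the smallest adjusted p was 0.0765 and 878 genes had an unadjusted p under 0.05. DESeq2 called 429. Against early airway smooth muscle 0 of 13916 genes (0%) were called, the smallest adjusted p was 0.268 and 697 had an unadjusted p under 0.05, with 189 called by DESeq2. The smooth muscle class rested on as few as 16 cells, in the male hyperoxia mouse.

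The p53 group was higher in all 3 classes. Of 20 members tested in early alveolar fibroblasts, 17 were higher and 0 lower in both hyperoxia mice, with a median log2 difference of 1.86, against 22.8% of all genes higher there. Of 18 tested in early airway smooth muscle, 13 were higher and 1 lower, with a median of 1.23, against 16.4% of all genes. Cdkn1a was at 89.9 and 15.7 CPM in normal air and 977 and 1048 CPM in hyperoxia in the alveolar fibroblasts, and at 145 and 25.9 CPM and 1676 and 1015 CPM in the smooth muscle. Its log2 difference in myofibroblasts exceeded those of the 2 classes by 0.55 ± 0.65 and 0.95 ± 0.65, with unadjusted interaction p of 0.427 and 0.189 in edgeR, so no difference between classes was shown. Ccng1 and Phlda3 had larger differences in myofibroblasts than in alveolar fibroblasts, by 1.94 ± 0.30 and 1.56 ± 0.22, and neither passed (edgeR interaction, adjusted p = 0.405 and 0.302).

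The hyperoxia difference of several genes came near the threshold between myofibroblasts and alveolar fibroblasts, and none passed. In alveolar fibroblasts Eln was at 699 and 506 CPM in normal air and 630 and 1000 CPM in hyperoxia, with overlapping groups. The difference in myofibroblasts was lower by 1.75 ± 0.17 on the log2 scale, and it missed the threshold (edgeR interaction, adjusted p = 0.0975). Nnat, Gpx3, Enpp1 and Mfap4 came as close, each at an adjusted p of 0.0843 in the same edgeR test. Nnat was at 173 and 124 CPM in normal air and 499 and 499 CPM in hyperoxia in alveolar fibroblasts, opposite to its direction in myofibroblasts. Ltbp1, the elastic fibre gene that fell in myofibroblasts, was also lower in both hyperoxia mice in alveolar fibroblasts, with an interaction of -0.37 ± 0.29 (edgeR, unadjusted p = 0.254). Of 16 elastic fibre genes, 4 were higher and 4 lower in both hyperoxia mice in alveolar fibroblasts, and 2 were higher and 8 lower in smooth muscle. In airway smooth muscle Eln was lower in both hyperoxia mice, as in myofibroblasts, at 3255 and 2760 CPM in normal air and 1161 and 1704 CPM in hyperoxia. Of 12 chemokine and inflammation genes tested in smooth muscle, 0 were higher and 2 lower in both hyperoxia mice, while 10 of 19 were higher and 0 lower in alveolar fibroblasts. In smooth muscle 21% of all genes were lower in both hyperoxia mice, and in alveolar fibroblasts 21.6%. Of 73 oxidative phosphorylation genes, 54 were lower and 3 higher in alveolar fibroblasts, and 5 were lower and 18 higher in smooth muscle.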

How the data were processed

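Single cells of distal lung were sorted into plates, and libraries were made by Tn5 tagging without RNA extraction, per the labels' protocols. The authors deposited a table of raw counts of reads per gene and cell. The submitters' processing notes name STAR 2.5.2b, HTSeq 0.10 and build GRCh38, a human build, although the samples are mouse; how reads were assigned, the annotation and the filters were not given in the sources used here. No molecular identifiers are named, so values are reads, and intervals cover counting error only. Another 2083 columns, each matched to a cell of the series, were not used. Of the listed symbols, 2 are not in the table, and cytosolic ribosomal protein genes were not analysed here.

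Reads were summed per mouse and subtype (at least 10 cells a library) with Python 3.11.15, numpy 2.4.6 and pandas 2.3.3. edgeR 4.0.16 in R 4.3.3 was run with TMM scaling, filterByExpr and the quasi-likelihood test, with terms for sex and group. The fit with the P1 mice held 6 libraries and 2 residual degrees of freedom, and the fit of the 4 P7 mice alone left 1. CPM used the TMM library sizes, except where marker levels were compared between subtypes, which used total reads. Differences between subtypes were fitted on 8 libraries with each mouse as a block, which also left 2 residual degrees of freedom. Calls used a Benjamini-Hochberg adjusted p of 0.05 over all genes tested. For equal depth, cells were thinned to 100000 reads, and the 9 normal-air and 0 hyperoxia P7 cells below it were left out, or to 50000. Alternatives used DESeq2 1.42.0, limma 3.58.1 and other scalings, filters, mice and wells. On simulated 4-fold changes in 200 of 12988 genes, edgeR recovered 42.0% with 97 calls, of which 13 were false, while 199 of DESeq2's 316 calls were false. The simulation used the fit with the P1 mice, and the fit of the 4 P7 mice alone was not simulated.

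The genes named were the leading 12 in each direction that passed the test at 10 CPM or more, filled where fewer passed by the smallest unadjusted p at 50 CPM or more with groups that did not overlap, and members of 26 functional and 12 marker lists (538 genes). The members and lists were chosen with earlier results of these data known. A floor of 3 reads stands for a count of 0. Figures used matplotlib 3.10.9, and exact tests scipy 1.17.1.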

Additional observations from a re-analysis of the deposited data

How the results depend on the processing

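The number of genes called by edgeR between hyperoxia and normal air, 0 in the fit with the P1 mice, stayed 0 under RLE and upper-quartile scaling, at a minimum of 10 CPM, with no term for sex, without the CD31-sorted cells, with plate 1 alone for the male hyperoxia mouse, with the omitted wells kept and with cells thinned to 100000 reads. It was 117 with the 4 P7 mice only, 75 with those mice and no term for sex, 26 with no filter on low counts, 10 with cells thinned to 50000 reads, 379 with DESeq2 and 68 with limma voom. Leaving out 1 mouse gave 0 to 168 calls, with 168 without the female P1 mouse, 143 without the male P1 mouse and 2 without the female hyperoxia mouse. The difference against early alveolar fibroblasts had 0 calls, against 429 with DESeq2, 2 with no filter, 9 after thinning and 0 to 51 on leaving out 1 mouse, with 51 without the female and 14 without the male normal-air mouse. The difference against early airway smooth muscle had 0 calls, against 189 with DESeq2, 1 with no filter, 4 after thinning and 0 to 4 on leaving out 1 mouse. The cause of these differences was not tested. The share of myofibroblasts and the genes per cell kept their direction in every alternative run. No paired analysis was possible because the mice carry no replicate numbers, and sex is a term of the fits.

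Of 2375 alternative log2 differences of 119 named genes, 2339 kept the direction and 36 reversed. Many of these genes were named for groups that did not overlap or for a call in the P7 fit, which favours a kept direction. The same count over all genes is not given here. Leaving out 1 mouse gave ranges that crossed 0 for Acta2 (-1.31 to 0.34), Cdk4 (-0.33 to 0.0658), Egfem1 (-0.12 to 0.12), Fbln5 (-1.66 to 0.31), Fos (-0.43 to 0.38), Hif1a (-0.45 to 0.15), Hmox1 (-2.69 to 2.98), Lum (-0.81 to 6.86), Mcm2 (-0.89 to 1.00), Myocd (-1.44 to 0.0581), Nqo1 (-2.55 to 3.15), Ramp2 (-0.73 to 0.0278), Sesn1 (-1.43 to 0.31) and Tagln (-0.0823 to 0.82). After thinning to 100000 and 50000 reads Cdk4 was at 0.0750 and 0.0285 (0.0814 with plate 1) and Tgfbr2 at -0.20 and -0.11, and Nqo1 at 0.0467 after the first. With limma voom Hmox1 was at -0.0890 and Nqo1 at 0.51. Fos was at 0.0084 with DESeq2 and with RLE scaling, 0.0083 with limma voom, 0.0032 with no term for sex, 0.0290 with upper-quartile scaling and 0.0194 with the wells kept. The counts of gene group members on 1 side were recomputed, an alternative chosen after seeing the data. Under thinning, plate, well and scaling changes, 17 to 18 p53 targets, 8 to 12 chemokine genes and 1 to 6 collagen genes were higher in both hyperoxia mice. On the lower side were 12 to 16 S phase and mitosis genes, 9 to 12 elastic fibre genes and 47 to 51 oxidative phosphorylation genes.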

Other observations

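The genes in these paragraphs lie outside the gene groups of the report and were chosen after their values were seen, from the 117 called in the P7 fit by edgeR's quasi-likelihood test. All missed the threshold in the fit with the P1 mice. Values are CPM per mouse, female first and then male. Several encode regulators of transcription. Snai1, a repressor known from the transition of epithelial cells to mesenchyme, was at 27.3 and 27.5 CPM in normal air and 161 and 198 CPM in hyperoxia. Tbx3, a developmental T-box factor, was at 45.7 and 69.9 CPM in normal air and 158 and 274 CPM in hyperoxia. Mycn, a growth-promoting factor of the MYC family, was at 2.15 and 4.18 CPM in normal air and 32.5 and 65.7 CPM in hyperoxia. In all 3 genes both hyperoxia mice lay above both normal-air mice, and both P1 mice lay between the P7 groups for Snai1 and Mycn. Socs3, a feedback inhibitor of cytokine signalling, was at 40.7 and 52.3 CPM in normal air and 161 and 356 CPM in hyperoxia, with P1 mice at 235 and 162 CPM, inside the hyperoxia range.

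Genes of survival, repair and the cell surface also stood higher. Bcl2l1, which encodes the BCL-XL protein that restrains apoptosis, was at 40.6 and 47.2 CPM in normal air and 142 and 203 CPM in hyperoxia. Mgmt, which removes alkyl groups from DNA bases, was at 5.93 and 1.29 CPM in normal air and 75.2 and 60.8 CPM in hyperoxia. Cavin1, a coat protein of caveolae, was at 211 and 210 CPM in normal air and 943 and 1340 CPM in hyperoxia. Aldh1a2, an enzyme that makes retinoic acid, was at 0.0713 and 2.76 CPM in normal air and 77.2 and 131 CPM in hyperoxia, and the P1 mice were at 12.5 and 0.152 CPM. Tnfrsf1a, a receptor for TNF, was at 73.9 and 68.1 CPM in normal air and 255 and 250 CPM in hyperoxia. Among the genes on the lower side, Gmnn, the replication licensing inhibitor geminin, was at 62.5 and 62.5 CPM in normal air and 11.5 and 10.5 CPM in hyperoxia. Spc24, a kinetochore protein, was at 48.1 and 40.7 CPM in normal air and 2.92 and 3.06 CPM in hyperoxia. In each of these genes the groups did not overlap, as in all 117 called in the P7 fit.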
